A study of Populus ussuriensis with 12 samples.

Results

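Roots of Populus ussuriensis, a poplar, held 65 genes that were at least 2-fold higher in plants overexpressing PuC3H35 than in wild type both on control medium and on PEG, and that PEG itself moved by less than 2-fold in wild type, all on the scale of log2(FPKM + 1). On the same scale, the OE level of each of them differed by less than 2-fold between the media. That is a description, since this difference is made up of values used to choose the genes. The share of all genes that did the same is not given here. These genes are 65 of the 35907 identifiers in the deposited files, and 65 of the 17044 that reached a mean of 5 FPKM in at least 1 group. FPKM is a level scaled for gene length and for library size.

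The 4 groups, each of 3 libraries, were PuC3H35-OE roots on control medium (libraries 1, 2 and 5), wild-type (WT) roots on control medium (1, 2 and 3), PuC3H35-OE roots on 6% PEG6000 (1, 3 and 4) and WT roots on 6% PEG6000 (1, 2 and 3). PuC3H35-OE is called OE below. All plants were grown in vitro, were 7 days old when they were moved, and then spent 7 days on half-strength Murashige and Skoog medium without PEG (control) or with it. The promoter of the transgene, the number of transgenic lines and any meaning of the library numbers are not stated in the labels, so the overexpressed gene and the transgenic material that carries it cannot be told apart. The labels do not say that libraries came from separate plants, and p-values measure only the spread between these libraries.

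CCCH zinc finger proteins, the family to which PuC3H35 belongs, bind zinc through cysteine and histidine residues, and many of them bind RNA and act on its stability or translation. In plants, members of the family take part in hormone and stress responses, among others. PEG6000 is a large polymer that lowers the water potential of the medium, so that roots take up water less easily, and it is widely used to imitate drought. The files pair 0 of the identifiers with a gene name or product, so no role is given here to any of them, PuC3H35 was not located among them and its level could not be looked at, and the root label was not checked against marker genes.

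The members were chosen on measured values, the group means of log2(FPKM + 1). The rule asks for a difference of OE minus WT of at least 1 on control medium and of at least 1 on PEG, a difference of PEG minus control in WT of less than 1 in either direction, and 5 FPKM or more on average in the group where the gene is highest. On this scale a difference of 1 is 2-fold, and the change of genes with low levels is understated. Of the genes at the 5 FPKM floor, 462 passed on control medium and 286 on PEG, and 73 passed on both, which is 15.8% of the control list and 25.5% of the PEG list. The bound on the WT response to PEG removed 7 of these 73, all of them raised by PEG in WT, and 1 more gene is left out of the set by name. The rule used both genotype differences and the WT response to PEG, and the difference between media in OE and the interaction are sums and differences of these same values. All 5 are therefore described below, and limma's calls on them are given with no weight as a test.

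Whole reads recovered from the FPKM steps came to 10566925 to 12053892 per library. Replicate pairs differed by more than sampling noise, at a chi-square per gene between 3.099 and 16.1, and had Pearson correlations of 0.983 to 0.993 across genes, which are not independent replicates. For a typical member the poorest library of a group held a median of 289 reads in OE and 82 in WT on control medium, and 295 in OE and 76 in WT on PEG. In bulk roots, more cells that express a gene and more RNA per cell cannot be told apart.

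The 65 genes separated the genotypes library by library. Every OE library was above every WT library in 64 of 65 members on control medium, where 24.3% of the 24976 genes tested do so, and in 64 of 65 on PEG, where 22.6% do. On both media at once 63 members kept the groups apart, beside 9.24% of tested genes. These shares follow from how the members were chosen and are not read as a result. The exceptions were Potri.001G089000.v3.1, whose groups overlapped on control medium, and Potri.T176700.v3.1, whose groups overlapped on PEG. By limma 64 members were called higher on control medium, where 12.8% of tested genes were, and 59 on PEG, where 9.19% were; these too are description. The differences ran over the 65 members from 1.00 to 3.46 with a median of 1.38 on control medium, and from 1.00 to 3.51 with a median of 1.36 on PEG, beside medians over all tested genes of 0.08 on both media.

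**Figure D1:**
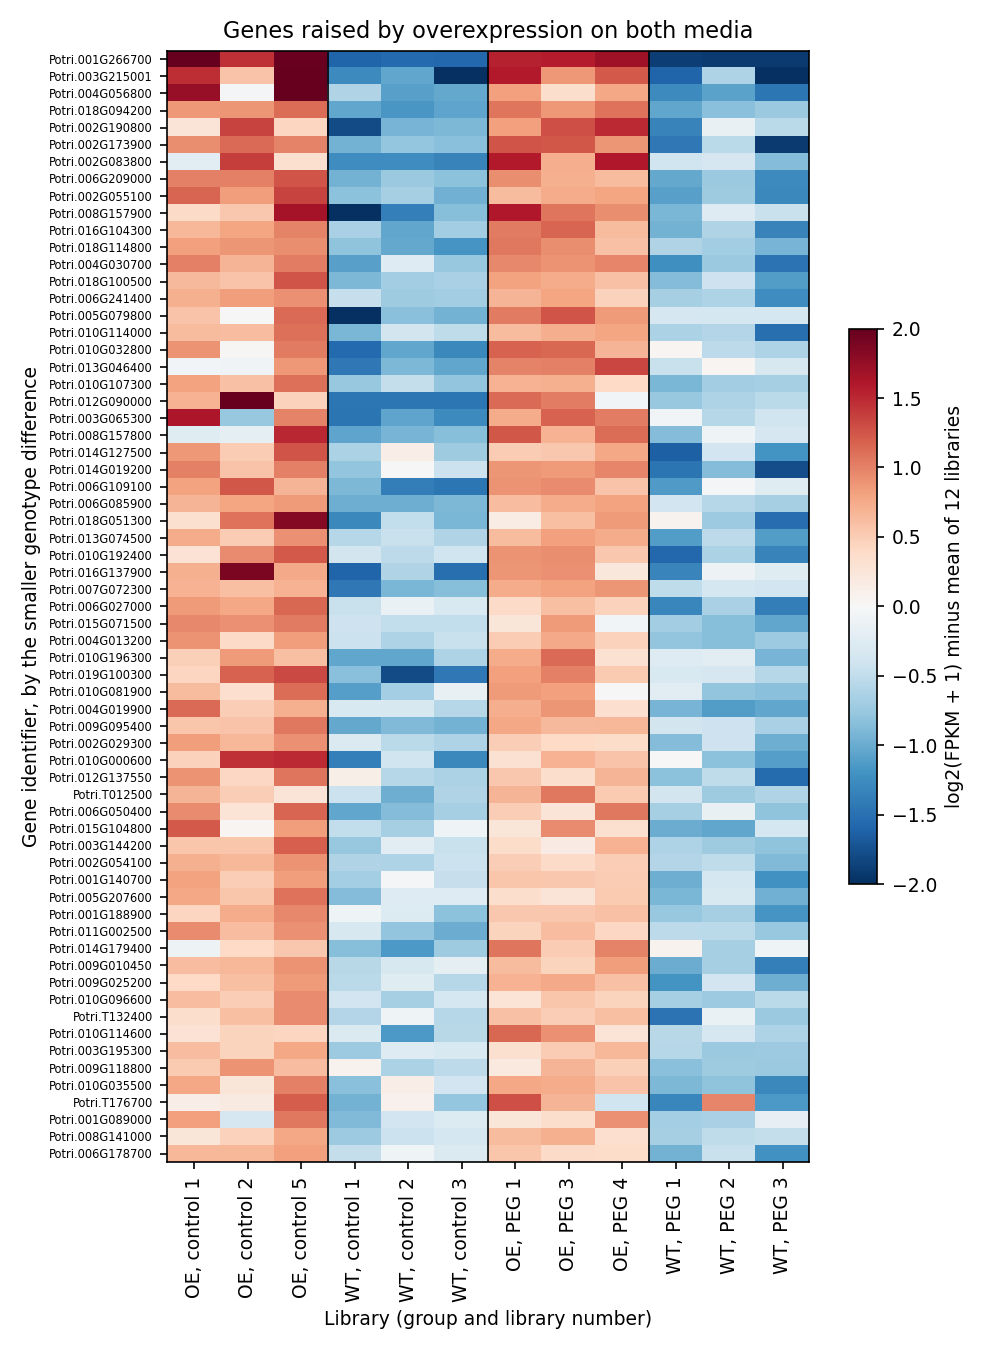
Levels of the 65 genes in all 12 libraries, as log2(FPKM + 1) minus the gene's mean over the libraries (red higher, blue lower), with genes in rows by the smaller of their 2 genotype differences and libraries in columns by group. The OE columns are red and the WT columns blue on both media for nearly every gene, and OE library 5 on control medium and WT library 2 on PEG are redder than their neighbours. Identifiers are shown without their .v3.1 ending.

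The gene with the largest differences was Potri.001G266700.v3.1, which was far higher in OE than in WT on either medium. On control medium it had 496, 299 and 428 FPKM in the OE libraries, against 34.8, 35.98 and 35.6 FPKM in WT. On PEG it had 317, 321 and 353 FPKM in OE and 28.5, 28.05 and 27.8 FPKM in WT. All 6 OE libraries were therefore several times above all 6 WT libraries, with hardly any spread among the WT libraries of a medium. Its differences of OE minus WT were 3.46 (SE 0.14) on control medium and 3.51 (SE 0.14) on PEG, or 10.98-fold and 11.4-fold.

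Potri.003G215001.v3.1 came next but was far less even. On control medium it had 37.4, 19.4 and 109 FPKM in the OE libraries, against 4.67, 5.71 and 2.02 FPKM in WT. On PEG it had 40.2, 24.2 and 31.2 FPKM in OE and 3.55, 7.95 and 2.39 FPKM in WT. In OE on control medium, library 5 was several times above library 2, and the groups still did not overlap. The differences were 3.19 (SE 0.53) on control medium and 2.64 (SE 0.53) on PEG. A similar unevenness was seen in Potri.004G056800.v3.1, which had 11.5, 2.66 and 26.5 FPKM in OE and 1.47, 0.775 and 0.842 FPKM in WT on control medium. On PEG its OE libraries had 5.604, 3.76 and 5.401 FPKM and its WT libraries 0.549, 0.782 and 0.371 FPKM. Its OE libraries on control medium were again highest in library 5 and lowest in library 2, while the OE libraries on PEG lay close together. Its differences, 2.43 (SE 0.52) on control medium and 1.91 (SE 0.52) on PEG, come from WT levels near or under 1 FPKM and depend on the pseudocount, with 2.94 on PEG when 0.1 was added in place of 1.

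Other genes of the leading 12 were more even within groups. Potri.018G094200.v3.1 had 17.5, 17.6 and 20.9 FPKM in OE and 3.93, 3.49 and 3.85 FPKM in WT on control medium. On PEG the OE libraries had 20.2, 17.4 and 20.3 FPKM and the WT libraries 3.89, 4.65 and 5.03 FPKM. No library left its group, and the differences were 2.04 (SE 0.11) on control medium and 1.88 (SE 0.11) on PEG. Potri.006G209000.v3.1 had 20.2, 20.1 and 24.2 FPKM in OE and 4.45, 5.27 and 4.96 in WT on control medium, and 19.04, 16.2 and 15.3 FPKM in OE and 4.17, 5.32 and 3.36 in WT on PEG. The same picture held at a higher level for Potri.002G055100.v3.1, with 90.3, 71.9 and 103 FPKM in OE and 22.2, 24.7 and 20.05 FPKM in WT on control medium. In this gene the OE libraries on PEG had 62.5, 67.2 and 69.5 FPKM and those of WT 18.1, 23.9 and 15.7 FPKM. Differences of OE minus WT were 1.93 and 1.77 for Potri.006G209000.v3.1, and 1.93 and 1.75 for Potri.002G055100.v3.1, on control medium and on PEG in turn.

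The next leading genes share the opening number 002 in their identifiers with Potri.002G055100.v3.1, but no pair of them lies within 500 in its numbering. Potri.002G190800.v3.1 had 7.91, 18.04 and 9.06 FPKM in OE and 1.17, 2.93 and 3.02 FPKM in WT on control medium, and 12.2, 17.4 and 20.1 FPKM in OE against 1.97, 5.77 and 4.14 FPKM in WT on PEG. Potri.002G173900.v3.1 had 23.5, 27.4 and 24.7 FPKM in OE and 5.71, 6.53 and 6.25 FPKM in WT on control medium, and 29.8, 29.5 and 22.9 FPKM in OE against 3.77, 7.93 and 2.43 FPKM in WT on PEG. The OE levels of Potri.002G173900.v3.1 overlapped between the media, and its spread on PEG lay in WT, where library 2 was highest. Potri.002G083800.v3.1 had 1.17, 5.58 and 2.15 FPKM in OE on control medium, where WT was close to silent with 0.0623, 0.0656 and 0 FPKM, and on PEG it had 6.58, 3.18 and 6.599 FPKM in OE and 0.906, 0.993 and 0.377 FPKM in WT. Its difference on control medium was 1.77 with 1 added before the log and 4.18 with 0.1.

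**Figure D2:**
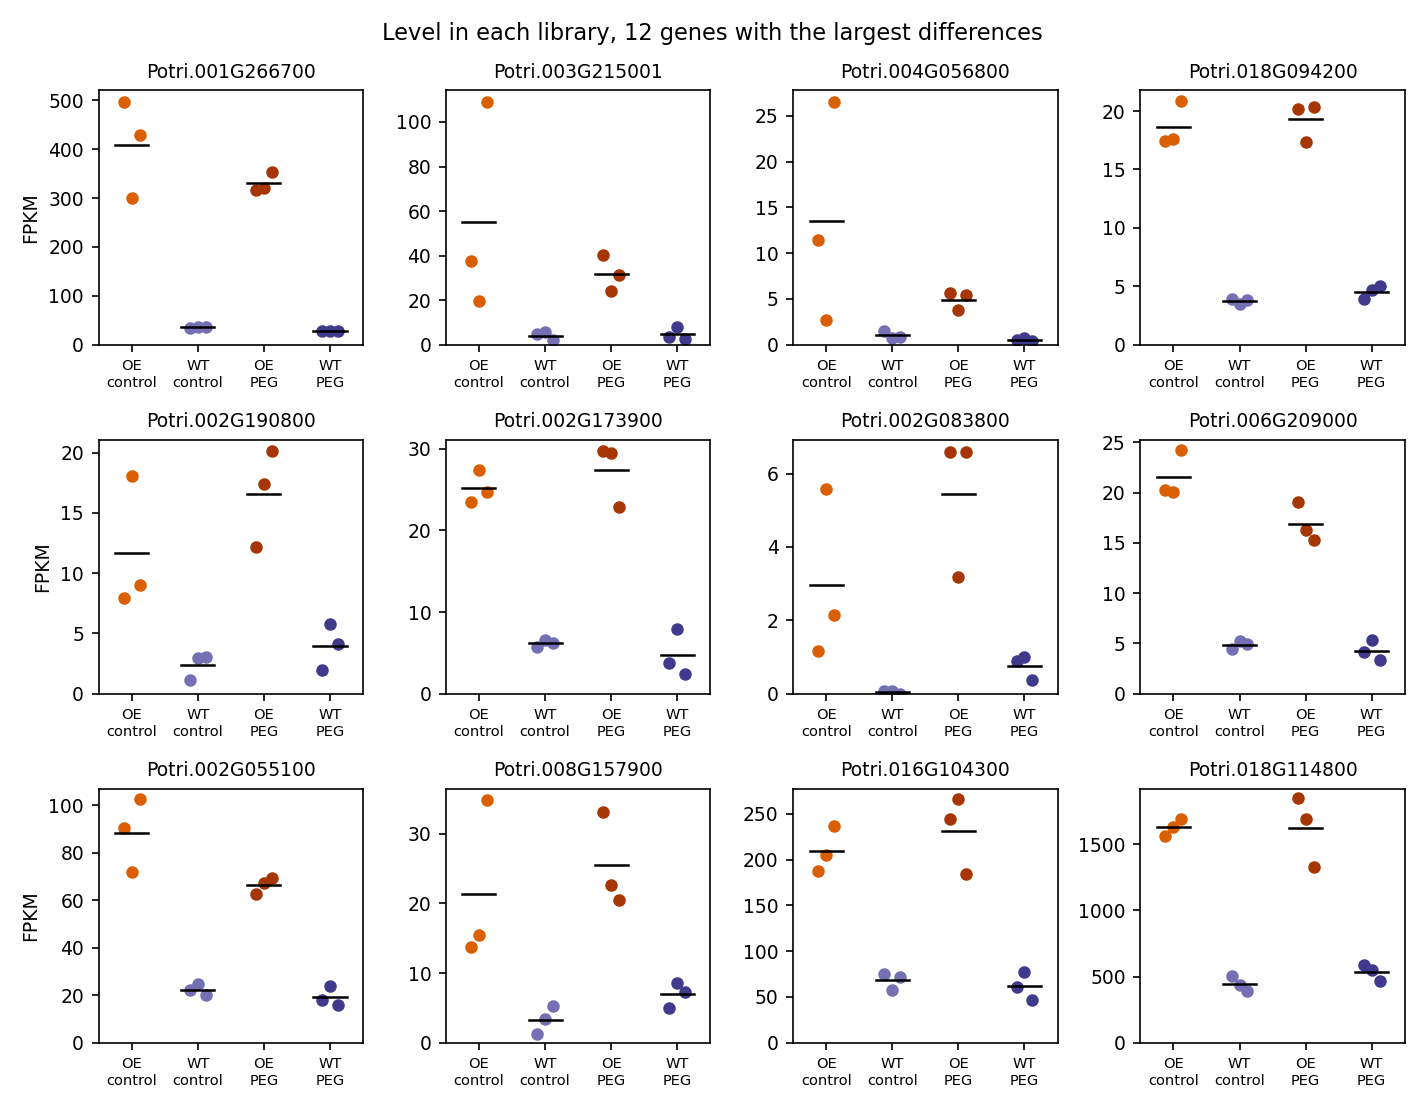
FPKM (linear axis from 0) of the 12 genes with the largest smaller genotype difference, 1 panel a gene; points are libraries in the order of their numbers and bars are group means. In every panel the 3 OE points of a medium lie above the 3 WT points of that medium, while OE points on control medium spread widely for Potri.003G215001 and Potri.004G056800. Identifiers are shown without their .v3.1 ending.

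The 3 most abundant members made up 46.9% of the members' summed FPKM in OE and 48.5% in WT on control medium, and 48.0% in OE and 52.1% in WT on PEG. Potri.018G114800.v3.1 was the most abundant member, with 1563, 1628 and 1689.6 FPKM in OE and 506, 437 and 392 FPKM in WT on control medium. On PEG it had 1847, 1691 and 1330.1 FPKM in OE and 585, 546 and 465 FPKM in WT. It alone made up 26.6% of the members' summed FPKM in OE and 21.9% in WT on control medium, and 27.1% in each genotype on PEG. Potri.004G013200.v3.1 averaged 808 ± 148 FPKM in OE and 346 ± 25.5 FPKM in WT on control medium (SD, n = 3 each). Its means on PEG were 733 ± 84.7 FPKM in OE and 282 ± 12.4 FPKM in WT. Potri.T012500.v3.1 had means of 428 ± 62.5 FPKM in OE and 194 ± 35.7 FPKM in WT on control medium, and 519 ± 101 FPKM in OE and 207 ± 25.4 FPKM in WT on PEG. These genes differed between the genotypes by less than the leading gene, with 1.21 and 1.37 for Potri.004G013200.v3.1 and 1.15 and 1.31 for Potri.T012500.v3.1 on control medium and PEG. Potri.016G104300.v3.1, also among the 12 genes with the largest differences, had 187, 205 and 237 FPKM in OE and 75.2, 57.4 and 72.3 FPKM in WT on control medium, and 245, 267 and 184 FPKM in OE against 60.8, 77.3 and 46.5 FPKM in WT on PEG.

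Summed over the 65 members, the level was 5498 to 6694 FPKM in the OE libraries and 2004 to 2069.5 FPKM in the WT libraries on control medium. On PEG the sums were 5417 to 6342 FPKM in OE and 1784 to 2107 FPKM in WT. As a share of all FPKM in a library this was 0.881% to 1.07% in OE, over both media, and 0.289% to 0.338% in WT. The sums of the genotypes did not overlap on either medium, which follows from the rule, and those of the media overlapped within each genotype.

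The identifiers Potri.008G157900.v3.1 and Potri.008G157800.v3.1 follow each other in the files' numbering, and both have a recovered length of 549 bases. Potri.008G157900.v3.1 had 13.7, 15.5 and 34.8 FPKM in OE and 1.23, 3.41 and 5.29 FPKM in WT on control medium, and 33.2, 22.7 and 20.5 FPKM in OE against 4.998, 8.52 and 7.302 FPKM in WT on PEG. Potri.008G157800.v3.1 had 3.73, 3.94 and 14.99 FPKM in OE and 1.69, 1.95 and 2.12 FPKM in WT on control medium, and 12.2, 8.03 and 11.2 FPKM in OE against 2.07, 4.26 and 3.42 FPKM in WT on PEG. Of the OE libraries on control medium, library 5 was highest in both. The next identifier, Potri.008G158000.v3.1, has the same recovered length of 549 bases, was more abundant at 80.5 FPKM in OE and 57.7 FPKM in WT on control medium, and is not a member, with differences of 0.40 on control medium and 0.44 on PEG. It was highest in library 5 of OE on control medium as well, at 125 FPKM among the 3 libraries of that group. If these are near-identical copies, counting could have split reads among them, and the value of each of these identifiers is uncertain.

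The set has no gap at its edge. Just inside it, Potri.008G141000.v3.1 had differences of 1.00 on control medium and 1.11 on PEG and Potri.006G178700.v3.1 of 1.00 on control medium and 1.30 on PEG. Just outside it, Potri.015G045300.v3.1 had 1.34 on control medium and 0.99 on PEG and Potri.006G221800.v3.1 had 1.08 on control medium and 0.99 on PEG. The pair inside averaged 342 and 28.4 FPKM in OE and 169 and 13.8 FPKM in WT on control medium. The pair outside averaged 6.99 and 44.3 FPKM in OE and 2.3 and 20.3 FPKM in WT there. Of the 65 members, 14 had a difference of at least 1.5 on both media and 2 had a difference of at least 2 on both.

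**Figure D3:**
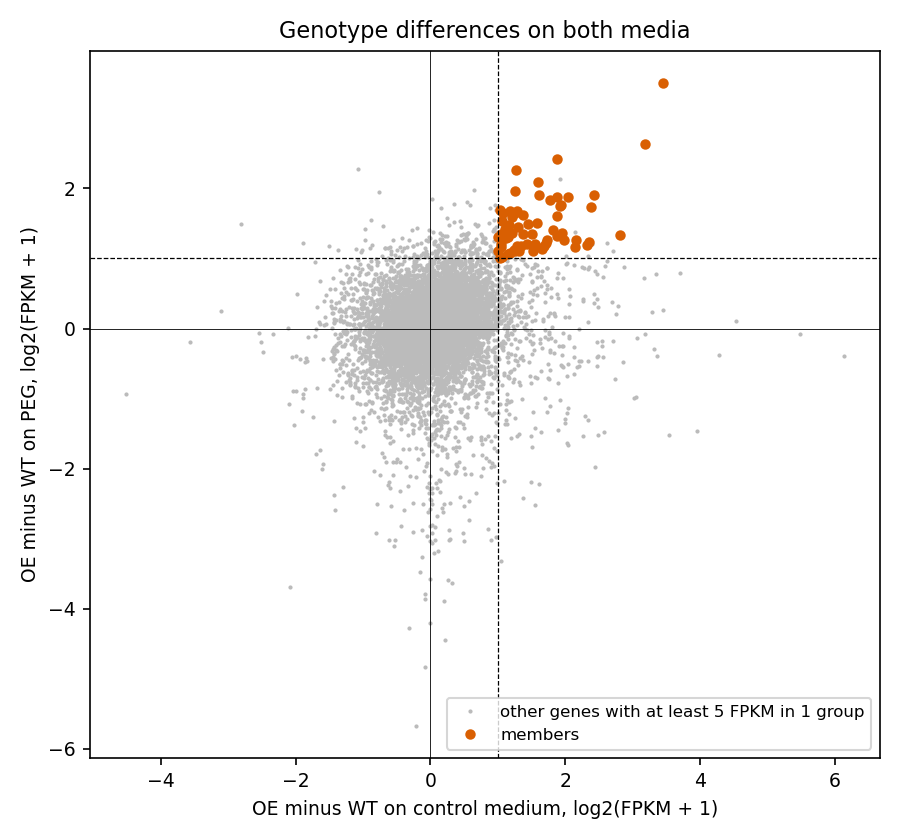
Difference of OE minus WT in log2(FPKM + 1) on control medium (horizontal) and on PEG (vertical) for the 17044 genes that reached the 5 FPKM floor; members are orange and dashed lines mark a difference of 1. The members lie in the upper right corner without a gap to the other genes, and Potri.001G266700.v3.1 stands alone at 3.46 and 3.51. Of the 73 genes in that corner, 7 are not members because of the bound on the WT response and 1 is left out by name.

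The difference between media within OE follows from the 3 differences that the rule used, so its values are a description. In limma's fit across all genes 0 of 65 members were called for PEG minus control in OE, where 2.08% of the 24976 tested genes were called, and nothing is read from this count. At an unadjusted p under 0.05 there were 9 members, beside 12.9% of tested genes. With limma-voom on recovered reads 0 were called and 11 had an unadjusted p under 0.05. The shares of tested genes under limma-voom are not given here. The differences ran from -0.88 to 0.87 with a median of -0.12, beside a median of -0.05 over tested genes. In size 55 of 65 were smaller than 0.5, and the same share over tested genes is not given here. The most positive difference was that of Potri.013G046400.v3.1, with 25.3, 25.7 and 32.3 FPKM on PEG and 11.7, 11.6 and 22.98 FPKM on control medium in OE (difference 0.87, SE 0.24). Its OE libraries on PEG were all above those on control medium. The SE of a single member's difference was 0.11 to 0.58 with a median of 0.21. Without library 2 of OE on control medium 3 members were called, without its library 5 there were 2, and without library 3 of OE on PEG there was 1. The shares of tested genes called in these fits are not given here, so nothing is read from the counts.

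Leaving out library 2 of OE on control medium, the called members were Potri.001G266700.v3.1 at -0.48, Potri.004G056800.v3.1 at -1.66 and Potri.002G083800.v3.1 at 1.253. Potri.001G266700.v3.1 and Potri.004G056800.v3.1 were then lower on PEG than on control medium, and Potri.002G083800.v3.1 was higher. Without library 5 of the same group, Potri.013G046400.v3.1 at 1.18 and Potri.008G157800.v3.1 at 1.23 were called higher on PEG. Without library 3 of OE on PEG, Potri.015G071500.v3.1 was called lower on PEG, at -0.88. Each of these calls was made only with that library left out, except that of Potri.013G046400.v3.1, which was also made under a replicate block. Number 5 belongs to 1 library only, so the block in effect leaves out library 5 of OE on control medium too. The call under the block is therefore not a separate one.

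**Figure D4:**
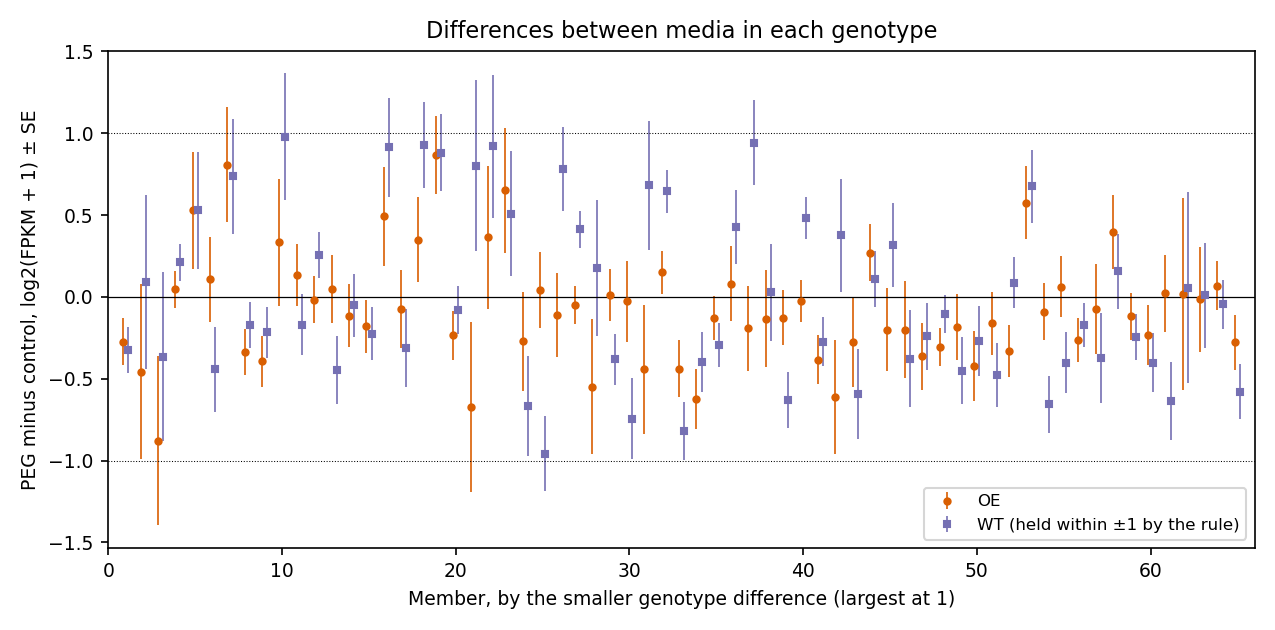
PEG minus control in log2(FPKM + 1) for each of the 65 members, in OE (orange circles) and in WT (violet squares), with limma's moderated SE as bars; members run from the largest smaller genotype difference at left. The WT points lie within 1 of 0 because the rule holds them there, and the OE points run from -0.88 to 0.87.

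The genotype difference was also compared between media, as the difference on PEG minus that on control medium (the interaction). The rule chose on both of these differences, so their difference is likewise a description. The genotype difference was larger on control medium in 35 members and larger on PEG in 30, and in 46 of 65 the 2 values were within 0.5 of each other. The share of tested genes within 0.5 is not given here. The median interaction was -0.04 over members and -0.01 over tested genes. By limma 0 of 65 members had a called interaction, where 7.5% of tested genes did, and nothing is read from this count. At an unadjusted p under 0.05 there were 7 members, beside 22.1% of tested genes. With limma-voom 0 were called and 9 had an unadjusted p under 0.05, and its shares of tested genes are not given here. For Potri.001G266700.v3.1 the interaction was 0.05 with an SE of 0.20. For Potri.003G215001.v3.1 it was -0.54 with an SE of 0.75, and both of these values changed sign under some settings. The call count was 2 without library 1 of WT on control medium (Potri.014G019200.v3.1 and Potri.019G100300.v3.1). It was 1 without library 1 of OE on control medium (Potri.019G100300.v3.1) and 1 without its library 2 (Potri.003G065300.v3.1). It was 1 without library 1 of WT on PEG (Potri.006G109100.v3.1) and 2 without library 2 of WT on PEG (Potri.002G173900.v3.1 and Potri.014G019200.v3.1). Shares of tested genes with a called interaction in these fits are not given here either, and nothing is read from the counts.

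Members whose differences were farthest apart on the 2 media were picked after their values were seen, and with all libraries none was called. Potri.019G100300.v3.1 had 11.6, 20.4 and 22.5 FPKM in OE and 4.27, 1.72 and 2.51 FPKM in WT on control medium, and 15.5, 18.01 and 12.5 FPKM in OE against 6.603, 6.44 and 5.33 FPKM in WT on PEG (interaction -1.14, SE 0.36). Each WT library on PEG was above each on control medium, and the OE libraries overlapped between media. Potri.014G019200.v3.1 went the other way, with 267, 197 and 268 FPKM in OE and 76.4, 133 and 97.9 FPKM in WT on control medium and 245, 240.0 and 263 FPKM in OE against 47.6, 72.5 and 38.1 FPKM in WT on PEG (interaction 1.00, SE 0.33). Its OE libraries again overlapped between media, and each of its WT libraries on PEG was below each of those on control medium. Potri.012G090000.v3.1 had 3.39, 20.2 and 2.75 FPKM in OE on control medium, where it was listed at 0 in all 3 WT libraries, and 4.97, 4.53 and 1.61 FPKM in OE against 0.608, 0.7699 and 0.867 FPKM in WT on PEG (interaction -1.48, SE 0.74). Its OE mean on control medium rested on library 2. Potri.016G137900.v3.1 had 9.89, 23.6 and 10.3 FPKM in OE and 1.198, 3.41 and 1.35 FPKM in WT on control medium, and 11.3, 11.6 and 6.79 FPKM in OE against 1.68, 5.22 and 4.65 FPKM in WT on PEG (interaction -1.12, SE 0.56). Library 2 was the highest of its OE libraries on control medium too.

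The members' differences of PEG minus control in WT ran from -0.96 to 0.98 with a median of -0.11, and 29 were above 0 and 36 below. The 9 members called higher and 6 called lower there by limma (15 of 65, where 28.6% of tested genes were called) are a description, since the rule used this contrast, and nothing is read from them.

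Library 5 of OE on control medium stood out within its group for this set. It was the highest of the 3 OE libraries in 48 of 65 members, with a median deviation of 0.23 from the group mean in log2(FPKM + 1), whereas over the 17044 genes at the floor its median deviation was -0.01. In WT on PEG, library 2 was the highest in 39 of 65 members, with a median deviation of 0.20 beside 0.03 over genes at the floor, and library 3 was lowest, at -0.17 beside -0.01. The rule used group means, which a single high or low library also moves, so the deviations are not independent of the choice. Leaving out library 1, 2 or 5 of OE on control medium lost 4, 2 or 13 of the 65 members. For library 1, 2 or 3 of WT on PEG the loss was 5, 8 or 8. How much the choice adds to these deviations was not tested. Within groups members deviated together, which is given as a description: the mean correlation between 2 members over the 12 deviations was 0.197, and between 2 genes at the floor 0.0125, and all genes share the same libraries. Without library 5 of OE on control medium these were 0.126 and 0.0138. With that library left out the rule found 55 genes, 52 of them among the 65.

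**Figure D5:**
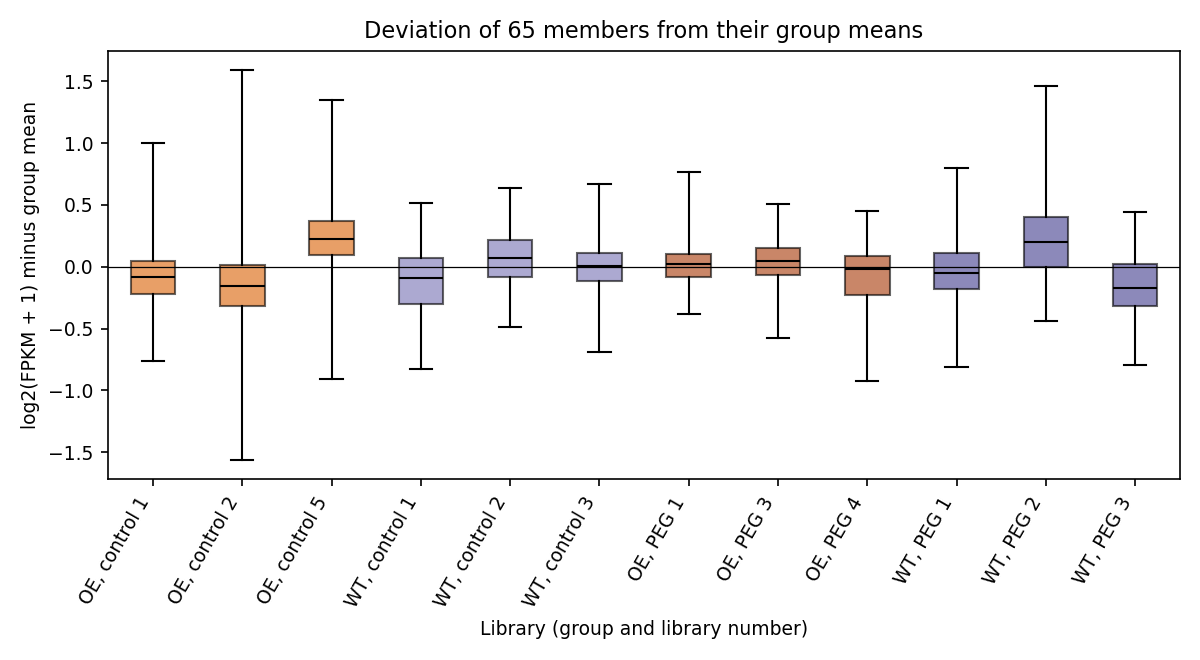
Deviation of the 65 members from their group mean in log2(FPKM + 1), by library; boxes span the quartiles, the line is the median and whiskers reach the lowest and highest member. The boxes of OE library 5 on control medium (median 0.23) and WT library 2 on PEG (0.20) lie above 0, and the longest whiskers are those of OE library 2 on control medium.

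The median SD of log2(FPKM + 1) within a group was 0.28 in OE and 0.26 in WT on control medium for members, beside 0.14 and 0.15 for genes at the floor. On PEG it was 0.20 in OE and 0.34 in WT for members, beside 0.15 and 0.11. What the choice of the members adds to this spread was not tested.

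The median level of the members was 19.8 FPKM in OE and 6.02 FPKM in WT on control medium, and 19.3 FPKM in OE and 6.12 FPKM in WT on PEG, and 43 of 65 were under 10 FPKM in WT on each medium. The medians over genes at the floor were 13.5 FPKM in OE and 13.04 FPKM in WT on control medium, and 13.2 FPKM in OE and 12.7 FPKM in WT on PEG. Means of at least 100 FPKM were seen for 10 members in OE on each medium, and for 6 members in WT on control medium and 5 on PEG. For 3 members fewer than 3 WT libraries reached 1 FPKM, so they entered the test through OE. The levels of OE and WT are set apart by the rule.

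The length recovered from the FPKM steps had a median of 1250 bases over members, with a range of 204 to 3827, and of 1776 bases over genes at the floor. Under 600 bases there were 6 members (9.23%), beside 3.42% of genes at the floor. Among the members, Potri.003G215001.v3.1 and Potri.002G083800.v3.1 share a recovered length of 1358 bases, and Potri.006G241400.v3.1 and Potri.005G079800.v3.1 share one of 1199 bases. Their identifiers are not neighbours, and whether they are copies was not tested.

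By the opening number of their identifiers the members were spread over 18 of the 19 numbered blocks, and 3 carried the letter T in place of a number. Block 010 held 10 members (15.4%, beside 7.11% of genes at the floor), block 006 held 7 (10.8%, beside 7.76%), block 001 held 4 (6.15%, beside 11.8%) and block 017 held 0. Only the pair in block 008 had identifiers within 500 of each other. Around the members, 307 other genes at the floor had identifiers within 500, and their median difference of OE minus WT was 0.09 on control medium and 0.05 on PEG, beside 0.07 on each medium for genes at the floor. Of these 307, 11 (3.58%) were at least 2-fold higher in OE on control medium and 7 (2.28%) on PEG, beside 2.71% and 1.68% of genes at the floor. The genes at the floor include the members, all of them at least 2-fold higher, and the 307 do not, so these shares are not fully alike. The identifiers' own numbering stands in for position here, and no coordinates were used.

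By the same limits turned round, 10 genes were at least 2-fold lower in OE on both media with less than a 2-fold response of WT to PEG, beside the 65 raised. On control medium alone, with no bound on the WT response, 462 genes at the floor were raised and 276 lowered. On PEG alone the order was the other way, with 286 raised and 399 lowered. The balance between the sets raised and lowered on both media depended on the scaling between libraries in its size and not in its direction. It was 50 raised and 20 lowered with median-ratio scaling, and 58 raised and 15 lowered with upper-quartile scaling. Median-ratio scaling put the median difference of all tested genes at 0.00 on control medium and -0.01 on PEG, and with it the members' median differences were 1.30 and 1.27.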

How the data were processed

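RNA-seq of 12 root libraries was used as the authors deposited it, 1 value a gene in each file. The header names no unit. The deposited values were judged to be FPKM from their steps. Of 370737 values above 0, 100.0% came out as whole reads within 0.01 read over a whole gene length. That length was fitted for each gene, as the smallest up to 20000 bases that made its values whole. The share is therefore partly built in, most of all for genes with few values above 0. FPKM and RPKM cannot be told apart this way. Bowtie2 2.2.3 and HISAT2 2.1.0 are named, without roles, per the submitters' processing notes; no counting tool, annotation or genome build was found in the labels or headers. Groups came from the tissue label and library numbers from the titles. No scaling was added to the authors' FPKM.

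The rule was applied to log2(FPKM + 1). Fits used limma 3.58.1 in R 4.3.3 (empirical Bayes with an intensity trend) on log2(FPKM + 1), as 1 fit of 4 group means to 12 libraries with 8 residual degrees of freedom, over the 24976 genes that 3 libraries or more held at 1 FPKM or above. Adjusted p is Benjamini-Hochberg over these genes, called under 0.05, two-sided. SE is limma's moderated error. PEG in OE and the interaction had been planned as tests, but both are made up of the differences the rule used, so they are given as description. The fit and the recovery of reads were tested on simulated data. Named members were the 12 with the largest smaller genotype difference, the 3 most abundant in OE, the 2 nearest the threshold on each side and neighbouring identifiers; called members would have been added, and the other members named were chosen after their values were seen. The members and lists were chosen with earlier results of these data known. Lists set by product name were not applied, because the files pair 0 identifiers with a name. Alternatives were other scalings, pseudocount, filter and floors, no trend, a replicate block, limma-voom on recovered reads, OE libraries alone, and each library left out in turn.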

Additional observations from a re-analysis of the deposited data

How the results depend on the processing

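The number of members was 65, and 42 with a bound of 0.5 on the WT response to PEG. Over the other limits, scalings and pseudocount it ran from 50 to 81. Leaving out 1 library gave 55 to 77 genes, and 24 of the 65 were found in every such set. Calls by limma, which are description here, numbered 0 for PEG in OE, with 1 under a replicate block (Potri.013G046400.v3.1) and 0 to 3 with 1 library left out. Calls for the interaction numbered 0, with 1 at a pseudocount of 0.1 (Potri.012G090000.v3.1), 0 under the replicate block and 0 to 2 with 1 library left out. The other settings called 0 in both. Shares of tested genes called under these alternative settings are not given here. The plan did not take the library numbers to pair libraries. Same-numbered libraries of different groups had deviations correlated at -0.233 to 0.263. Libraries with different numbers were not compared in this way, so these values cannot tell whether the numbers mark pairs. The rule asks for genotype differences of at least 1, so signs that hold are not read as a result. Genotype differences of the 22 members followed singly kept their sign under every setting run. Their uncalled values changed sign in 35 cases for the interaction and 13 for PEG in OE. The cause of these changes was not tested. Numbers 4 and 5 each belong to 1 library. A replicate block therefore in effect leaves out OE library 4 on PEG and OE library 5 on control medium. Where a member had 0 reads, as Potri.012G090000.v3.1 in WT on control medium, the counts do not tell no expression from a level under detection.

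With a replicate block, the interaction turned to -0.018 for Potri.001G266700.v3.1, 0.60 for Potri.003G215001.v3.1, 0.031 for Potri.004G056800.v3.1, -0.14 for Potri.002G190800.v3.1, 0.13 for Potri.006G209000.v3.1, 0.035 for Potri.002G055100.v3.1 and 0.28 for Potri.013G046400.v3.1. With a pseudocount of 0.1, the interaction turned to -0.13 for Potri.002G190800.v3.1 and -1.47 for Potri.002G083800.v3.1. With limma-voom on recovered reads, the interaction turned to -0.17 for Potri.002G190800.v3.1 and -2.43 for Potri.002G083800.v3.1. With 1 library left out, the interaction ran from -0.16 to 0.21 for Potri.001G266700.v3.1, -1.10 to 0.11 for Potri.003G215001.v3.1, -1.29 to 0.16 for Potri.004G056800.v3.1 and -0.33 to 0.34 for Potri.002G190800.v3.1. Likewise, the interaction ran from -0.28 to 0.52 for Potri.002G083800.v3.1, -0.012 to 0.25 for Potri.008G141000.v3.1, -0.16 to 0.72 for Potri.008G157800.v3.1 and -0.17 to 0.30 for Potri.013G046400.v3.1. With a replicate block, PEG in OE turned to 0.69 for Potri.003G215001.v3.1, 0.24 for Potri.018G114800.v3.1, 0.0095 for Potri.006G178700.v3.1 and 0.14 for Potri.019G100300.v3.1. With median-ratio scaling, PEG in OE turned to 0.039 for Potri.018G114800.v3.1. With upper-quartile scaling, PEG in OE turned to 0.016 for Potri.018G114800.v3.1. With 1 library left out, PEG in OE ran from -1.01 to 0.20 for Potri.003G215001.v3.1, -0.12 to 0.12 for Potri.018G114800.v3.1 and -0.056 to 0.21 for Potri.008G141000.v3.1. Likewise, PEG in OE ran from -1.13 to 0.12 for Potri.012G090000.v3.1 and -0.11 to 0.12 for Potri.014G019200.v3.1.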
